A study of Mus musculus with 48 samples.

Results

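Astrocytes of the olfactory bulb were compared with astrocytes of the cortex at postnatal day 7 (P7), in 6 of the 48 bulk RNA-seq libraries of a mouse series. The 6 libraries were chosen by their labels for tissue, cell type and age. No measured value entered that rule, but earlier results of these data were known. The series was made for a study of how inhibitory input shapes astrocytes through the glial GABA-B receptor. The bulb group held 3 libraries and the cortex group 3 libraries, all labelled astrocyte and P7, with no genotype, strain, sex, treatment or pooling given for them, and no way of isolating the cells was given in the labels. Nothing in the labels says that the 3 libraries of a group came from separate animals, so each p-value measures the spread between these libraries, which may be technical. Libraries of both regions at P1 (3 bulb, 3 cortex) and at P14 (3 bulb, 4 cortex) served to compare the region difference between ages.

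Astrocytes take up glutamate and GABA, buffer potassium, supply lipids and serine to neurons, and secrete factors that promote synapse formation. They arise from regional progenitors, pallial or subpallial, and keep part of the transcription factor code of their place of origin. The bulb receives newborn interneurons throughout life, as neuroblasts that migrate from the ventricular zone. The first postnatal weeks are the time when astrocytes stop dividing, branch out and switch on the channels, transporters and receptors of mature cells.

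After the ribosomal RNA gene Rn45s was set aside, the 3 bulb libraries held 3204873 to 3964193 reads and the 3 cortex libraries 3999574 to 6772033. Rn45s took 19.2% to 22.2% of all reads in the bulb and 13.7% to 18.01% in the cortex. Across genes, libraries of the same region correlated at 0.952 to 0.977 (cortex) and 0.955 to 0.962 (bulb), and libraries of different regions at 0.809 to 0.885. Ddx3y, a Y-linked gene, stood at 582 in bulb replicate 2 and at 0 to 0.870 in the other 5 libraries, so the sexes were not balanced between the groups. The cortex libraries carry label numbers 30 to 39 and the bulb libraries 79 to 84, so anything that changed along the library numbers cannot be told apart from region. All values below are recovered reads divided by a size factor computed over these 6 libraries together, since the authors' tables were scaled separately for each region. Differences are bulb minus cortex of log2(value + 1), where the pseudocount of 1 makes the change of a gene with few reads look smaller than it is.

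Nearly as many genes were higher as were lower in the bulb. The joint scaling by median ratio centres the differences, so this balance is largely set by it. Of 12753 genes with a mean of at least 10, limma called 6040 at a Benjamini-Hochberg adjusted p under 0.05, a share of 47.4%. The calls were 2904 higher in the bulb (22.8%) and 3136 lower (24.6%), and 3230 of them differed by at least 2-fold. The libraries of the 2 regions did not overlap for 58.8% of all genes tested. The median difference over all tested genes was -0.01, and the middle 80% of genes lay between -1.28 and 1.13. On the authors' own scaling of the separate tables the median moved to -0.21 and the split to 1973 higher and 3936 lower. Without bulb replicate 2, the library with Ddx3y, 5337 genes were called.

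**Figure D1:**
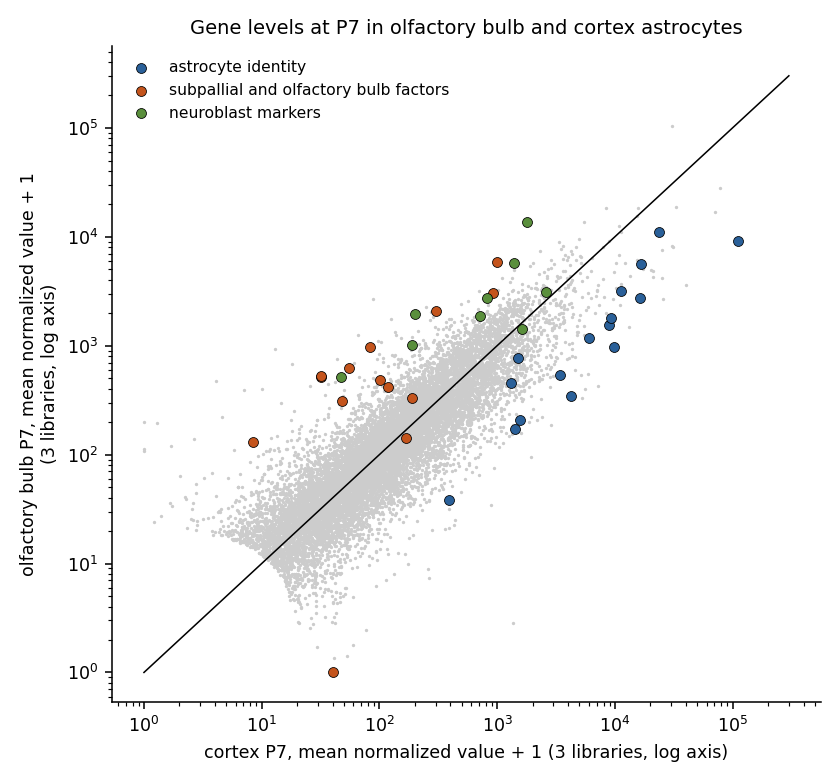
Mean normalized value of each of the 12753 tested genes in the 3 cortex P7 libraries (horizontal, log axis) and the 3 olfactory bulb P7 libraries (vertical, log axis), with the diagonal marking equal values. The 16 astrocyte identity genes all lie under the diagonal, while 12 of the 14 tested subpallial and bulb factors lie above it and were called higher.

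The genes that define astrocytes were the first check of the label. All 16 genes of the astrocyte identity list were detected in every library of both regions, and all 16 were lower in the bulb, with a median difference of -2.63 and a range from -0.97 to -4.20. Aldh1l1, a folate enzyme widely used to mark astrocytes, stood at 347, 479 and 533 in the bulb and at 1334, 1410 and 1214 in the cortex. The groups did not overlap, and the difference was -1.56 (SE 0.17, limma adjusted p = 0.00019). Slc1a2, the main glutamate transporter of forebrain astrocytes, stood at 10048, 10929 and 6332 against 92899, 133579 and 109566, a difference of -3.64 (SE 0.26, adjusted p = 2.9e-05). The differences were smaller for Slc1a3, the glutamate transporter that appears earlier in glia (-1.12), and for Sox9, a transcription factor of the astrocyte lineage (-0.97). Sox9 values were 863, 832 and 603 in the bulb against 1477, 1693 and 1308 in the cortex. The list's members therefore spread over a wide range, from a cortex mean 1.95 times the bulb mean for Sox9 to 12.3 times for Slc1a2 and for Clu.

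Bulb replicate 3 held the lowest value of the 6 libraries for 14 of these 16 genes. Gfap, the intermediate filament of astrocytes, stood at 296, 301 and 28.4 in the bulb and at 1920, 1778 and 993 in the cortex. Clusterin (Clu), a secreted chaperone, followed the same order with 536, 449 and 49.4 against 4108, 4949 and 3685. Summed over the 16 identity genes, the level was 28129 to 50834 in the bulb and 208912 to 261124 in the cortex, so the groups were far apart with or without that library. Leaving out bulb replicate 3 kept all 16 members called lower.

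Neuroblast and most neuronal marker lists moved the opposite way, while microglia and endothelial lists held lower calls only. The oligodendrocyte lists held few calls, all lower. Over all genes tested, 22.8% were called higher and 24.6% lower. Of 9 neuroblast markers 7 were higher in the bulb and none lower, and their summed level was 22132 to 44716 in the bulb against 8447 to 10078 in the cortex. Dcx, a microtubule protein of migrating neuroblasts, stood at 14408, 9275 and 17533 in the bulb and at 2011, 1419 and 1897 in the cortex (2.92, SE 0.24, adjusted p = 5.1e-05). Bulb replicate 3, lowest in the astrocyte genes, was the highest of the 6 libraries for 8 of the 9 neuroblast markers. Sox11 (1.92) and Sox4 (2.41), transcription factors of immature neurons, and Igfbpl1 (3.72), a secreted protein of young neurons, were higher too. Of 10 markers of bulb interneurons 8 were higher, among them the GABA-synthesizing enzymes Gad1 (2.85) and Gad2 (2.87), calretinin (Calb2, 5.38) and tyrosine hydroxylase (Th, 4.31), with summed levels of 6349 to 10264 against 1000 to 1241. None was called lower in the main limma fit. By edgeR, DESeq2, limma with array weights and limma without cortex replicate 2, 1 was lower. Of 12 pan-neuron markers 5 were higher and none lower, but 8 were higher without cortex replicate 3, 2 were lower without cortex replicate 2, and edgeR and DESeq2 each called 1 lower. Their sums were 13523 to 18392 in the bulb against 5089 to 10966 in the cortex.

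Projection neuron markers also differed, beside 22.8% higher and 24.6% lower over all tested genes. Of 5 tested mitral and tufted cell markers 2 were higher and 1 lower. Eomes, a transcription factor of mitral and tufted cell precursors, stood at 351, 516 and 316 in the bulb against 2.61, 13.4 and 2.03 in the cortex. Cdhr1, a protocadherin of mitral and tufted cells, stood at 294, 417 and 187 against 18.3, 2.44 and 19.6. The lower member was Nrp1, a semaphorin receptor that other cells also make, at 186, 342 and 172 against 546, 617 and 524 (-1.33). The mitral genes Tbx21, Lhx1 and Lhx5 held too few reads to be tested, with Lhx5 at 0 in all 6 libraries. Of 10 genes listed as markers of cortical excitatory neurons 5 were higher in the bulb and 1 lower, against 2 lower without cortex replicate 2 and 2 higher in the fit of all 19 libraries. The higher ones were Neurod1 (4.16), Bcl11b (3.12), Slc17a6 (2.37), Tbr1 (2.08) and Neurod2 (1.22), several of which neurons of the bulb also use. The call of Neurod2 was lost without any of 4 libraries. In bulk RNA fewer cells of a type and less RNA per cell cannot be told apart, and the part of these neuronal transcripts in the astrocyte differences was not tested.

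Markers of other glia, of vessels and of blood were counted in the same way. Of 8 oligodendrocyte precursor markers Olig1 (-2.07) and Olig2 (-1.04) were lower and none higher, a share near the 24.6% of all tested genes. Pdgfra, the receptor that defines the precursors, stood at 942, 947 and 434 in the bulb against 818, 1118 and 647. Of 9 mature oligodendrocyte markers 4 were tested, and the myelin genes Cnp (-2.69) and Mbp (-1.47) were lower in the bulb. The other 2 tested did not pass, with Cldn11 at 0.14, and Opalin was at 0 in all 6 libraries. Microglia markers summed to 323 to 682 in the bulb and 824, 2680 and 916 in the cortex, and 5 of 10 were lower, or 3 without cortex replicate 2, the library with the high sum. Endothelial markers summed to 175 to 244 against 578 to 736, with 7 of 8 tested genes lower, none of which was called in the fit of all 19 libraries. Of 8 olfactory ensheathing glia markers 6 were tested, and Frzb (3.11), Mybpc1 (4.30) and Ngfr (2.29) were higher in the bulb. The other 3 did not pass, and the whole list summed to 614 to 683 against 330 to 440. The count of higher markers was 2 without bulb replicate 2 or 3, 4 without cortex replicate 1, and 0 at a minimum mean of 100. Of 9 mural and fibroblast markers 7 were tested and 2 were lower, with none called lower in the fit of all 19 libraries and 1 called higher without bulb replicate 1. Of 9 ependymal and choroid plexus markers 3 were tested and 2 were lower, and the 4 hemoglobin genes were at 0 in every library. Of 6 blood markers 1 was tested, and of 6 sex chromosome genes 5 were tested, and none of these passed with limma. DESeq2 called none of the sex chromosome genes either, and edgeR called 4 higher in the bulb, where 1 library held Ddx3y. The part of these cells in the other results was not tested.

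**Figure D2:**
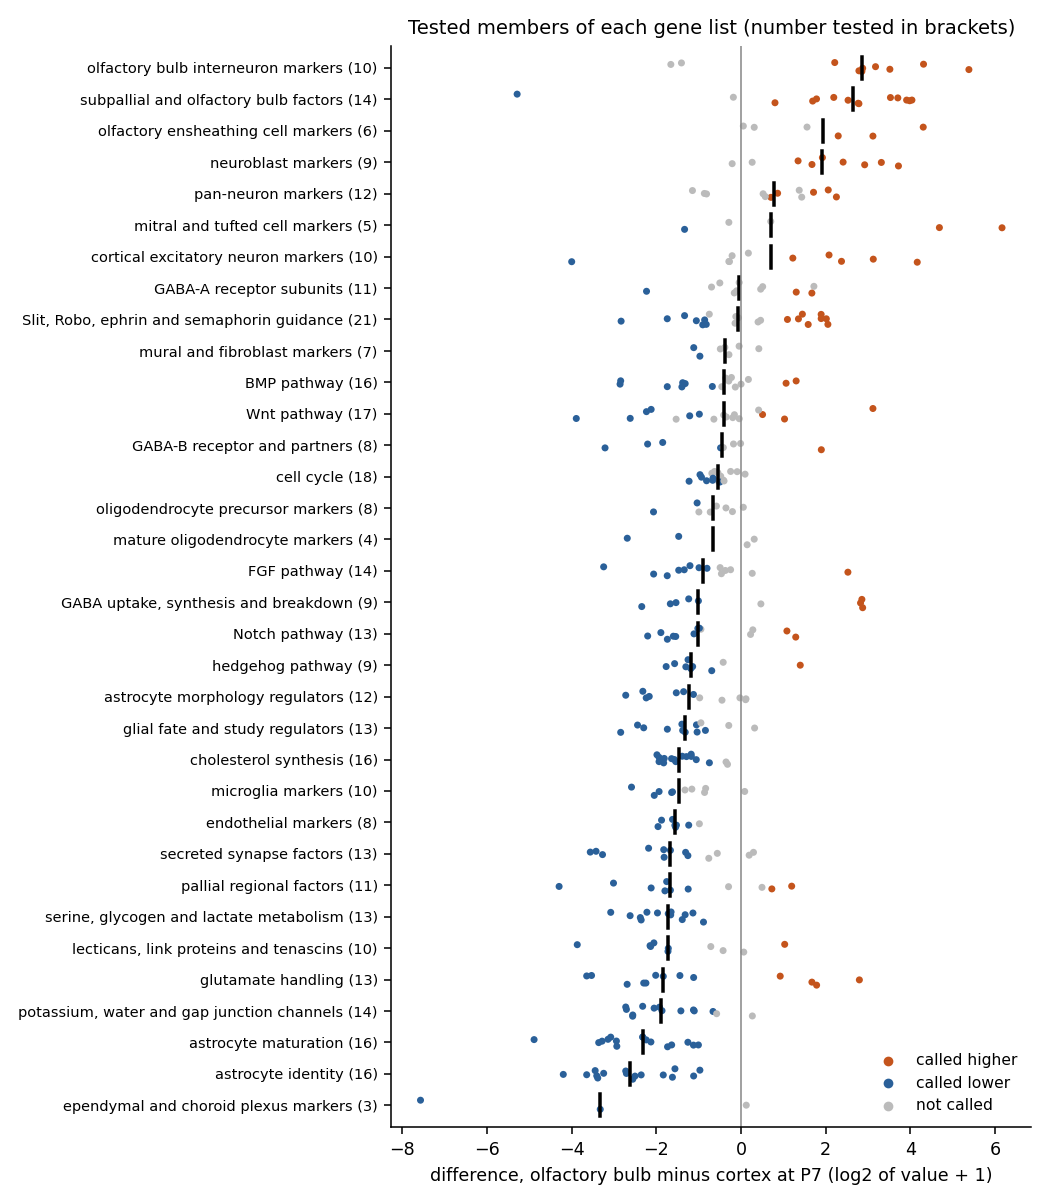
Difference bulb minus cortex at P7 (log2 of value + 1, horizontal) for every tested member of each gene list (rows), with the list's median as a black bar. Astrocyte lists sit left of 0, while neuroblast, bulb interneuron and subpallial factor lists sit right of it.

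Regional transcription factors separated the 2 tissues in both directions, and the upstream sequences of the strongest members are shown so that their composition can be compared with the values. The rule took the called factors with the largest difference each way that have an entry in the promoter table of RefSeq (GRCm38.p6), where 15 of the 22 called factors were found. Each line gives the 250 bases before the first listed start on the gene's strand, in lower case, with matches to the GC box GGGCGG on either strand in capitals.

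Sp9: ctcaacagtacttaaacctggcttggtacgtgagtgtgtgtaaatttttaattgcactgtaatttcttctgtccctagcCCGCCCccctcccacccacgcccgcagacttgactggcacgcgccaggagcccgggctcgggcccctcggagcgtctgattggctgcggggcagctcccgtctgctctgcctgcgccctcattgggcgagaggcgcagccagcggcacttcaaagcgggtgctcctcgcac
Sp8: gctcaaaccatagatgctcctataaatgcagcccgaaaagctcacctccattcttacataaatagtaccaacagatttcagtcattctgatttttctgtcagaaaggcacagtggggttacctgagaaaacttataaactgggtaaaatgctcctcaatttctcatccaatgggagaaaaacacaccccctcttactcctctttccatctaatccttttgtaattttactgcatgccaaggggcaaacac
Six3: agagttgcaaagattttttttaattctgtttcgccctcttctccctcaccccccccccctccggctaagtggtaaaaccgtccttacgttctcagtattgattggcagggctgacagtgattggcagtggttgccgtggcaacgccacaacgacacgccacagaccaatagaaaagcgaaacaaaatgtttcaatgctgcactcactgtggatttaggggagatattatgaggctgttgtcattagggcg
Nr2f1: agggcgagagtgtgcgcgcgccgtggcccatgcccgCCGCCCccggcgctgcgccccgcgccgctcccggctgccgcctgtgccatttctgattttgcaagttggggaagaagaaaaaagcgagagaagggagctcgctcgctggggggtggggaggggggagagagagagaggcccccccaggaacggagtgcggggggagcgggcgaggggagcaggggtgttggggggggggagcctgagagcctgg

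The windows lie at chr2:73271676-73271925 (Sp9, plus strand), chr12:118846079-118846328 (Sp8, plus), chr17:85620584-85620833 (Six3, plus) and chr13:78198874-78199123 (Nr2f1, minus). Their GC content was 62.4%, 40.8%, 48.8% and 72.0% in that order, so neither direction shared a composition. The GC box had 1 match each in Sp9 and Nr2f1 and none in Sp8 and Six3, and 32.7% of all 32851 windows of the table hold it. The homeodomain core TAATTA, which reads the same on both strands, had no match in any of the 4, and 4.84% of all windows hold it. Sp8 has 3 listed starts and Nr2f1 has 2, of which the first in the table is shown.

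Of 14 tested subpallial and bulb factors 12 were higher in the bulb and 1 lower, with a median difference of 2.65. Dlx1, a homeodomain factor of GABAergic progenitors, stood at 880, 575 and 1456 in the bulb and at 98.3, 102 and 46.0 in the cortex (3.53, SE 0.37, adjusted p = 0.00014). Dlx2 (2.77), Dlx5 (4.03) and Dlx6 (3.91) were higher with it. The zinc finger factors Sp8 and Sp9, which bulb interneurons need, stood at 488, 426 and 943 and at 479, 241 and 843 in the bulb. Their cortex values were 70.5, 77.9 and 14.9 for Sp8 and 47.0, 31.7 and 14.9 for Sp9. Bulb replicate 3 was the highest of the 6 libraries for 9 of the 14 factors, these among them, and cortex replicate 3 was the lowest for Dlx1, Sp8 and Sp9. Meis2 (2.53), Tshz1 (2.78), Meis1 (1.78), Etv1 (1.69) and Pax6 (0.80) were also higher. Six3, a homeodomain factor of the ventral forebrain, had no read in any bulb library and stood at 56.6, 29.2 and 33.2 in the cortex. It was the 1 lower member of the list. Dlx6 overlaps the antisense gene Dlx6os1 (3.31), and since the strand used in counting is not given in the sources used here, reads of the pair cannot be told apart. Neuroblasts and bulb interneurons use most of these factors as well, and their markers were higher in the same libraries.

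Of 11 tested pallial factors 7 were lower in the bulb and 2 higher. Nr2f1 (COUP-TFI), a nuclear receptor of caudal cortical areas, stood at 29.2, 19.7 and 15.8 in the bulb and at 420, 405 and 461 in the cortex (-4.30, SE 0.23, adjusted p = 1.5e-05). Its relative Nr2f2 stood at 59.4, 71.3 and 79.9 against 255, 209 and 274. Lhx2 (-1.76) and Emx2 (-1.67), homeodomain factors of the pallial progenitor zone, Lef1 (-2.12), Otx1 (-1.25) and Bhlhe22 (-3.01) were lower too. Zbtb20 (1.195), a zinc finger factor, was among the higher ones. Emx1, Lhx9 and Dmrt3 were too low to test.

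The largest single differences were named by rule, from the genes with a mean above the median and no overlap between the groups. Among the 14 largest rises, Lgr5, a receptor for R-spondins, led with 689, 435 and 287 in the bulb against 5.22, 0 and 4.06 in the cortex (7.13, SE 0.64, adjusted p = 6.9e-05). With so few cortex reads the fitted size depends on the pseudocount. Frmd7, a FERM domain protein, stood at 1395, 752 and 634 against 20.9, 9.74 and 5.41. Prokr2, the receptor for the prokineticins that guide neuroblasts to the bulb, stood at 2407, 1497 and 4055 against 117, 65.8 and 79.9. The phosphatase gene Dusp4 (5.13), the synaptotagmin Syt6 (4.27), Edaradd (5.72), an adaptor of the ectodysplasin receptor, and Filip1l (4.14) rose as well. The other 7 of the 14 were Eomes, Calb2, Cdhr1, Neurod1, Dlx5, Sp9 and Igfbpl1, which already stand in lists of neuronal or bulb genes.

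The 14 largest falls were led by Ttr, which encodes transthyretin and is the most abundant transcript of the choroid plexus. It had 2.16, 1.23 and 2.10 in the bulb and 365, 111 and 3647 in the cortex, so cortex replicate 3 was 10.01 times cortex replicate 1, the next highest. Its fitted difference of -7.57 rests on 1 or 2 reads per bulb library and depends on the pseudocount. Clic6, another choroid plexus gene, was lower as well (-3.32), whereas Folr1 was too low to test. Agt, the angiotensinogen gene that astrocytes express, stood at 8.64, 7.37 and 3.15 against 297, 295 and 199 (-5.23, SE 0.35, adjusted p = 2.7e-05). Dio2, the deiodinase with which astrocytes make active thyroid hormone, stood at 408, 484 and 99.9 against 4974, 5941 and 4757. Car8, a carbonic anhydrase relative without enzyme activity, had the smallest error among them, at 98.3, 82.3 and 98.8 against 1987, 2135 and 1679 (-4.36, SE 0.15, adjusted p = 2.4e-06). Scd1, a desaturase that makes monounsaturated fatty acids, stood at 378, 516 and 370 against 7173, 8432 and 6033. The neurotensin receptor Ntsr2 (-4.89), the matrix genes Egfl6 (-4.88) and Ccdc80 (-4.26), the mitochondrial sulfur transferase Tst (-4.74), Tnfrsf19 (-3.94) and caveolin 2 (Cav2, -3.88) belonged to the set, as did Nr2f1 and Clu.

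**Figure D3:**
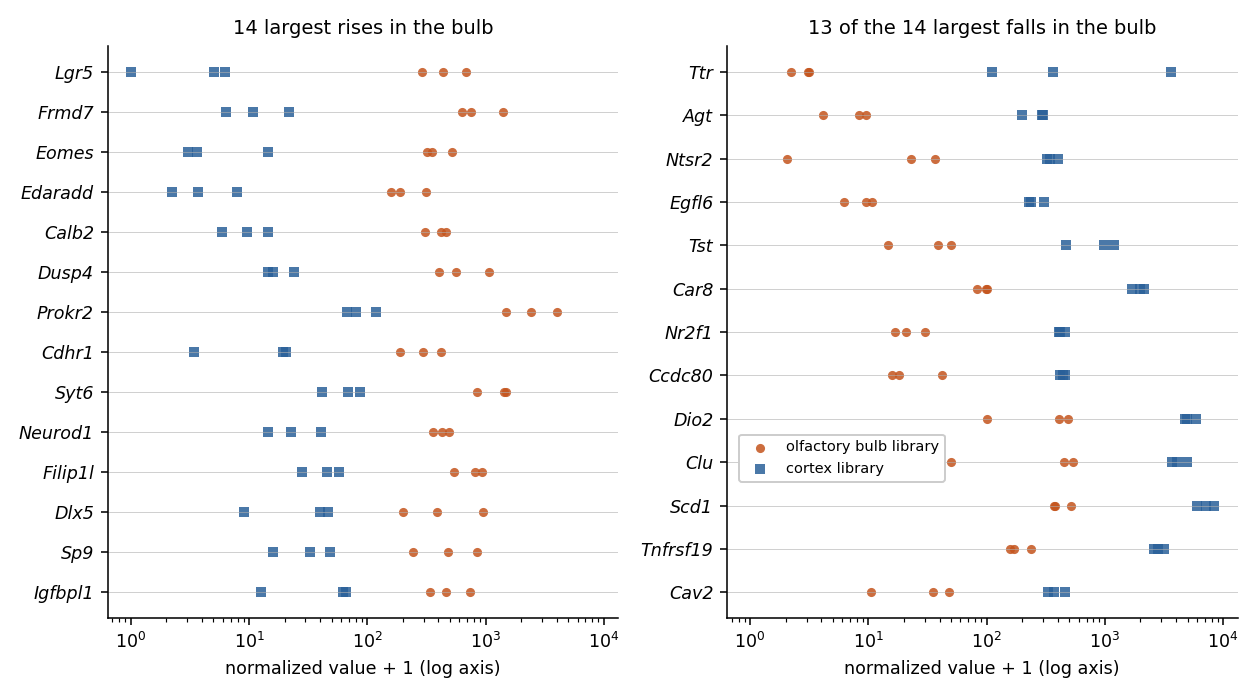
Normalized value per library (horizontal, log axis of value + 1) of the 14 genes with the largest rise and 13 of the 14 with the largest fall in the bulb at P7, with 3 bulb and 3 cortex libraries as points. The groups are apart in every row because the rule required it; cortex Ttr spreads from 111 to 3647.

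The study centres on the GABA-B receptor, a dimer of the subunits encoded by Gabbr1 and Gabbr2 that signals through inhibitory G proteins. Both subunits were lower in the bulb. Gabbr1 (GENCODE M21, GRCm38 chr17:37045966-37075067, plus strand), which binds GABA, stood at 972, 869 and 960 in the bulb and at 4558, 4258 and 4110 in the cortex. The bulb mean was 21.7% of the cortex mean, and the difference was -2.21 (SE 0.13, limma adjusted p = 1.7e-05). Gabbr2 (chr4:46662305-46991873, minus strand), which couples to the G protein, stood at 313, 205 and 140 against 1942, 1985 and 1875, a bulb mean of 11.3% of the cortex mean and a difference of -3.21 (SE 0.25, adjusted p = 4.1e-05). Within the bulb the highest library was 2.24 times the lowest for Gabbr2 and 1.12 times for Gabbr1. The exact two-sided permutation test gave p = 0.1 for each, the smallest that 3 against 3 libraries allow.

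Of the 8 tested members of the receptor and its partners 4 were lower and 1 higher, beside 24.6% and 22.8% of all tested genes. Kctd12, an auxiliary subunit that speeds desensitization, stood at 1150, 1468 and 1228 against 1528, 2144 and 1730 (-0.48, adjusted p = 0.038), a call that was lost without cortex replicate 2 or 3 or bulb replicate 1 or 3. The G protein genes moved in opposite directions. Gnai2 stood at 530, 552 and 652 in the bulb against 2093, 2292 and 1868 (-1.85), and Gnai1 at 2358, 1290 and 1333 against 408, 371 and 517 (1.90). Kctd8 and Kctd16 were too low to test. Neurons also transcribe these subunits and G proteins, so the levels are those of the whole sample.

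GABA-A receptor subunits, the chloride channels opened by GABA, passed in few cases. All tested genes gave 22.8% higher and 24.6% lower calls. Of 11 tested subunits 2 were higher and 1 was lower. The counts were 1 higher without cortex replicate 1, and 1 higher and 2 lower without bulb replicate 1 or 2. The lower one was Gabrg1, the gamma subunit typical of glia, at 308, 351 and 127 against 1024, 1277 and 1101 (-2.23). Genes of GABA handling went both ways. The plasma membrane transporter Slc6a11 (GAT3, -1.01) and the degrading enzymes Abat (-1.67), Aldh5a1 (-1.54) and Maob (-2.34) were lower, whereas Gad1, Gad2 and the vesicular transporter Slc32a1 (2.82), genes of GABAergic neurons, were higher. Slc6a11, the transporter most tied to astrocytes, stood at 3538, 4344 and 2938 against 7354, 7741 and 6439.

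Glutamate handling showed a similar division. Of 13 genes 9 were lower and 4 higher. Lower were both uptake transporters, glutamine synthetase (Glul, -1.84), glutamate dehydrogenase (Glud1, -2.30), the glutamine exporters Slc38a3 (-2.25) and Slc38a5 (-2.69), the cystine exchanger Slc7a11 (-1.44), and the metabotropic receptors Grm3 (-3.53) and Grm5 (-2.02). Grm3, the main group II receptor of astrocytes, stood at 543, 783 and 302 against 5398, 6555 and 5616. Among the higher were the AMPA receptor subunits Gria1 (2.79), Gria2 (1.67) and Gria4 (1.78). Gria1 stood at 1906, 1647 and 1934 in the bulb against 325, 141 and 392 in the cortex.

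Potassium, water and gap junction channels were lower for 12 of 14 genes, with none higher and a median of -1.90. Aqp4, the water channel of astrocyte endfeet, stood at 2688, 4056 and 1432 against 17088, 17520 and 14509 (-2.71, SE 0.32, adjusted p = 0.00024). The inward rectifier Kcnj10 (Kir4.1) stood at 1272, 1503 and 958 against 5388, 7598 and 5610 (-2.32). Connexin 43 (Gja1) fell by 2.72 and connexin 30 (Gjb6) by 1.12. The sodium pump subunit Atp1b2 (-2.56) was lower as well. Kcnk2, a two-pore channel, differed least among those called (-0.66), and the other two genes of the list did not pass.

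All 16 genes of the maturation list were lower in the bulb, at a median of -2.32. Grin2c, an NMDA receptor subunit of mature astrocytes, stood at 20.5, 22.1 and 13.7 against 55.7, 64.5 and 58.2. Cldn10 (-3.36), Gpr37l1 (-3.28), Pla2g7 (-3.14), Ppp1r3c (-3.08) and Slc39a12 (-2.94) were among the largest differences. Of the regulators of astrocyte fate and of the study's interest 10 of 13 were lower and none higher. Npas3, a bHLH-PAS transcription factor, stood at 187, 264 and 180 against 1115, 1205 and 1075 (-2.44), and Ednrb, the endothelin B receptor, at 2522, 3115 and 1373 against 11034, 12397 and 9390 (-2.30). Of the NFI factors, which start gliogenesis, Nfia (-1.32), Nfix (-1.05) and Nfic (-0.84) were lower. Nfib did not pass, at 4162, 4150 and 8109 against 4081, 4690 and 3760.

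Of 12 regulators of astrocyte shape 7 were lower and none higher. Among the 7, Hepacam, Mlc1 and Gjb6 also stand in the maturation list, and Gja1 and Gjb6 in the channel list. Ezrin (Ezr), the membrane linker of fine processes, was lower (-1.53), as were Hepacam (-2.24), Mlc1 (-2.32), Fermt2 (-2.17) and the BDNF receptor Ntrk2 (-1.36). Nlgn1, a neuroligin that anchors astrocyte processes at synapses, stood at 752, 671 and 486 against 810, 822 and 939 and did not pass (adjusted p = 0.061). The remaining 4 genes did not pass either.

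Secreted factors that act on synapses were lower for 9 of 13 genes and higher for none. Sparcl1 (hevin), which promotes synapse formation, stood at 3466, 4974 and 2308 against 38182, 39634 and 43121 (-3.56, SE 0.26, adjusted p = 3.3e-05). Its antagonist Sparc stood at 506, 463 and 629 against 5689, 5719 and 4093 (-3.27). The glypicans Gpc4 (-1.83), Gpc5 (-1.31) and Gpc6 (-1.67), which recruit AMPA receptors, and Chrdl1 (-1.25), which matures synapses, were lower. Of the thrombospondins, which astrocytes secrete, Thbs4 was lower at 2.16, 0 and 3.15 against 37.4, 28.01 and 13.5 (-3.42). The other 4 genes did not pass. Of the matrix genes 6 of 10 tested were lower, led by the link protein Hapln1 (-3.87), with the lecticans Ncan (-2.14) and Bcan (-2.15) and tenascin C (Tnc, -1.72). Versican (Vcan), a lectican of migrating cells and precursors, was the 1 higher member, at 4866, 6028 and 12055 against 3329, 3455 and 3607 (1.03, adjusted p = 0.017), a call lost without cortex replicate 1.

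Signalling pathways are described by their members' roles. In the Notch pathway, where ligands on a neighbour activate receptors and induce Hes and Hey factors, the receptors Notch1 (-1.11), Notch2 (-1.02) and Notch3 (-1.60) and the targets Hey1 (-2.20), Hes5 (-1.74), Heyl (-1.54), Hey2 (-0.98) and Nrarp (-1.89) were lower. The ligands Dll1 (1.08) and Jag2 (1.29) were higher, but each lost its call when any of 5 libraries was left out, and so did Hey2 for 4. Hey1 stood at 81.0, 95.8 and 61.0 against 428, 359 and 311. Of 9 tested hedgehog genes 7 were lower, including the receptor Ptch1 (-1.19), which is also a target, the transducer Smo (-1.25), Gli2 (-1.30), Gli3 (-1.57) and the decoy Hhip (-1.77). The coreceptor Cdon was higher, at 251, 323 and 336 against 150, 127 and 77.2. A second gene was called higher without cortex replicate 1 or 2.

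Of 14 tested FGF genes 8 were lower and 1 higher. The counts of this paragraph stand beside 24.6% called lower and 22.8% called higher over all tested genes. The receptor Fgfr3, which marks astrocyte progenitors, stood at 188, 252 and 67.3 against 1329, 1539 and 1352 (-3.24). The FGF targets Etv4 (-1.74), Etv5 (-1.21) and Spry2 (-1.34) were lower, and the ligand Fgf9, made by neurons and glia, was higher (2.52). Of 16 tested BMP genes 7 were lower and 2 higher. Among the receptors Bmpr1b (-2.86) and Bmpr1a (-1.32) were lower and Acvr1 (1.06) higher, and of the ID targets Id3 (-2.84), Id2 (-1.40) and Id1 (-1.38) were lower. Of 17 tested Wnt genes 6 were lower and 3 higher. Wnt5a (1.03), Wnt7a (0.51) and the antagonist Frzb were higher, while Wnt7b (-2.23), Fzd10 (-3.89), Dkk3 (-2.62) and the target Axin2 (-0.98) were lower. The call of Wnt7a was lost without any of 4 libraries.

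Guidance genes were divided more evenly than the astrocyte lists, with 8 of 21 higher and 7 lower. Over all tested genes the shares were 22.8% and 24.6%. Robo2, the Slit receptor of bulb axons and neuroblasts, stood at 3698, 3373 and 5350 against 1192, 995 and 1101 (1.89). Efnb2 (2.01), Efna5 (1.36), Epha3 (2.05), Sema3c (1.89), Sema5a (1.45), Nrp2 (1.59) and Efnb3 (1.10) were higher too. Lower were the Eph receptor Ephb1, at 30.2, 38.1 and 39.9 against 250, 309 and 231 (-2.83), the plexins Plxnb1 (-1.74) and Plxna1 (-1.06), Nrp1 (-1.33), Slit1 (-0.90), Slit2 (-0.82) and Sema6a (-0.86). The calls of both Slit genes were lost without cortex replicate 3 or bulb replicate 2.

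Metabolic genes were lower almost throughout. All 13 tested genes of serine, glycogen and lactate metabolism were lower, at a median of -1.72. Phgdh, the first enzyme of serine synthesis, stood at 158, 174 and 132 against 751, 795 and 629 (-2.22, SE 0.16, adjusted p = 3.3e-05), and Psat1 (-2.38) and Psph (-2.62), the next enzymes of the chain, differed as much. Lactate dehydrogenase A (Ldha, -1.66) and B (Ldhb, -1.39) and the lactate carrier Slc16a1 (-1.72) were lower together. Of 16 cholesterol genes 14 were lower and none higher, at a median of -1.46. Hmgcs1, an early enzyme, stood at 2864, 2902 and 2296 against 7748, 10343 and 10644 (-1.83), and Nsdhl (-1.99), Mvd (-1.94) and Dhcr7 (-1.94) followed.

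Cell cycle genes differed less. Of 18 members 7 were lower and none higher, at a median of -0.54, beside 24.6% lower among all tested genes. The 7 were Ccnd2 (-1.23), Aurkb (-0.97), Nusap1 (-0.93), Ccnb1 (-0.81), Ccna2 (-0.67), Rrm2 (-0.66) and Pcna (-0.50). All but Ccnd2 and Nusap1 lost the call when at least 1 library, in turn, was left out. The count was 3 without any single cortex library or without bulb replicate 2, 2 without bulb replicate 1, 10 without bulb replicate 3, and 1 in the fit of all 19 libraries. Top2a, which untangles DNA in dividing cells, stood at 350, 619 and 698 against 675, 737 and 858 and did not pass (adjusted p = 0.12). Bulb replicate 1 was the lowest of the 3 bulb libraries for 16 of the 18 genes.

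**Figure D4:**
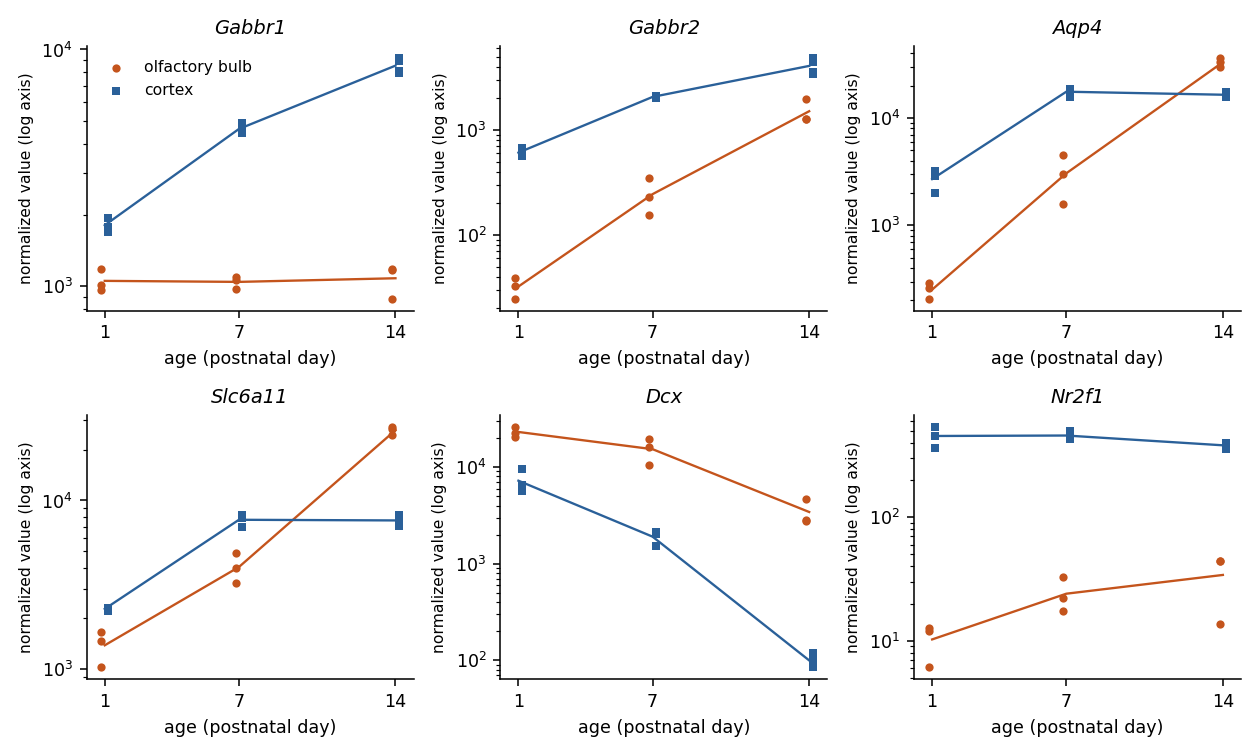
Normalized value (vertical, log axis, scaled over the 19 libraries of both regions and 3 ages) of Gabbr1, Gabbr2, Aqp4, Slc6a11, Dcx and Nr2f1 at P1, P7 and P14 (horizontal), with each library as a point and lines through the group means. Mean Gabbr1 is 1052, 1042 and 1079 in the bulb and 1807, 4614 and 8544 in the cortex; Aqp4 and Slc6a11 cross over between P7 and P14.

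The libraries of P1 and P14 hold other samples of the same regions. At P1 limma called 7720 of 13531 genes between bulb and cortex (57.1%, with 27.8% higher and 29.2% lower in the bulb), and at P14 3654 of 11628 (31.4%, with 15.5% higher and 15.9% lower). Of the 6040 genes called at P7, 5981 could be tested at P1, where 4072 were called in the same direction and 254 in the opposite one. The 4072 were 67.4% of the P7 calls and 52.7% of the P1 calls. At P14 5519 could be tested, with 1809 in the same direction and 403 in the opposite one, 30% of the P7 calls and 49.5% of the P14 calls. Of the 14 largest rises 13, all but Cdhr1, were also higher at P1, and all 10 that could be tested at P14 were higher there. Of the 14 largest falls 13 were lower at P1 and 12 at P14, with Ttr an exception at P1 and Cav2 one at P14.

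Changes between ages were tested as an interaction of region and age, and the tests of both age steps share the 6 P7 libraries. The region difference itself changed between P1 and P7 for 2840 of 13236 genes (21.5%), with 1351 more positive at P7 (10.2%) and 1489 more negative (11.2%). With TMM scaling the split was 1581 and 1151, so the balance of directions depended on the scaling. Gabbr1 was among them: its difference was -0.74 at P1 and -2.21 at P7, a change of -1.49 (SE 0.16, limma adjusted p = 0.00018). Its level was 967 to 1175 in the bulb and 1694 to 1948 in the cortex at P1, on a scale common to all 19 libraries, and 976 to 1088 against 4444 to 4869 at P7. For Gabbr2 the difference was -4.19 at P1, and its change of 0.94 missed the threshold (adjusted p = 0.056). Among genes whose mean reached the median of those tested, the largest positive changes were those of Lgr5 (4.97), the noncoding RNA Snhg11 (4.43) and the heparan sulfate enzyme Hs6st2 (4.21). Among the largest negative ones, under the same limit, were those of the vesicle protein Sv2b (-3.10) and the chaperone Dnajb9 (-2.95). Of the hedgehog genes 6 had a more negative difference at P7 and none a more positive one, with Hhip going from 0.51 to -1.77 (change -2.31). Of the cholesterol genes 8 did so, and Msmo1 went from -0.28 to -1.81 (change -1.56).

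Between P7 and P14 the difference changed for 2545 of 12354 genes (20.6%), 1529 more positive (12.4%) and 1016 more negative (8.22%). The median change over all genes was -0.11, so the positive changes stand against a slightly negative centre. Of the 16 identity genes 13 had a more positive difference at P14 and none a more negative one, and the same counts held for the maturation list. Aqp4 went from -2.71 to 1.03 (change 3.64, SE 0.34, limma adjusted p = 4.9e-06). Its P14 levels were 29645 to 36087 in the bulb and 15595 to 17297 in the cortex, so the bulb was the higher region at that age. Slc6a11 went from -1.01 to 1.81 (change 2.72), Npas3 from -2.44 to 1.24 (3.59) and Ednrb from -2.30 to 1.05 (3.25). Slc1a2 stayed lower in the bulb, at 144684 to 166325 against 775782 to 899737, with a difference of -2.41. At P14 4 identity genes were higher in the bulb and 10 lower, at a median of -0.83.

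Gabbr1 stayed at 884 to 1186 in the bulb at P14 while the cortex stood at 7921 to 9204, and its difference widened to -2.96 (change -0.85, limma adjusted p = 0.0022). Gabbr2 went the other way, to 1274 to 1975 in the bulb against 3439 to 4862 in the cortex, a difference of -1.42 (change 1.70, limma adjusted p = 0.0017). Kctd12 went from -0.48 to 2.84 (change 3.23). Mean Dcx fell from P7 to P14 in both regions, from 15311 to 3428 in the bulb and 1903 to 99.7 in the cortex. Its P14 levels were 2759 to 4715 in the bulb and 84.6 to 119 in the cortex. The difference of Dcx widened from 2.92 to 5.08 (change 2.07). Among genes whose mean reached the median of those tested, the largest positive changes were those of the glycosyltransferase B3gnt5 (4.77), cyclin A2 (Ccna2, 4.76) and the endothelial receptor Adgrl4 (4.74). The largest negative ones, under the same limit, were those of Lypd6 (-5.62), a modulator of nicotinic receptors, Gas6 (-5.09), a ligand of phagocytic receptors, and Shisa7 (-4.42). Of the 18 cell cycle genes 12 had a more positive difference at P14, with Top2a going from -0.50 to 3.32 (change 3.72). The bulb libraries at P14 were the shallowest, with 1498834 to 2136437 reads.

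**Figure D5:**
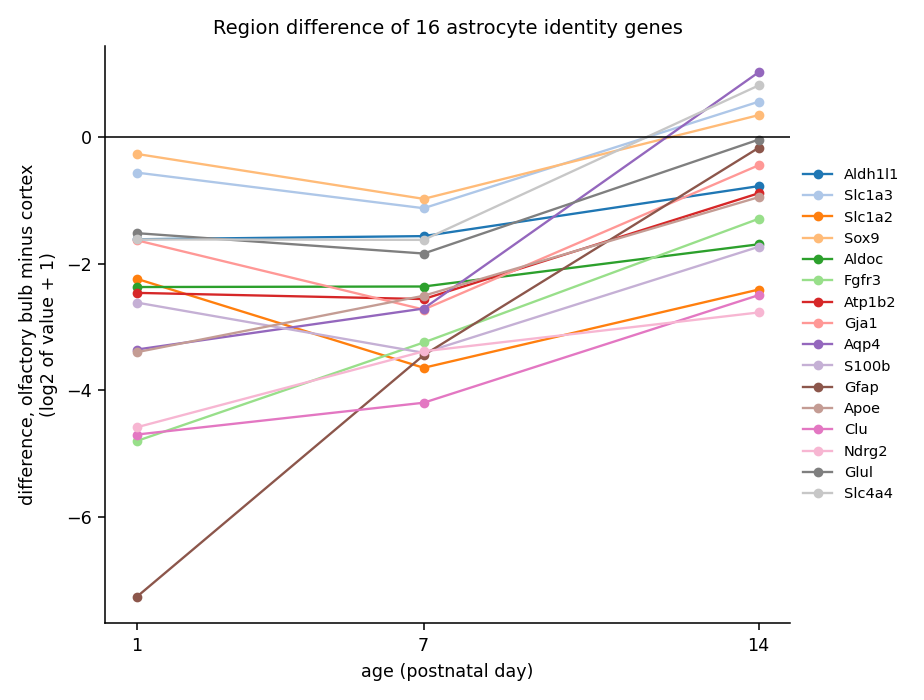
Region difference (bulb minus cortex, log2 of value + 1, vertical) of the 16 astrocyte identity genes at P1, P7 and P14 (horizontal), one line per gene. All 16 are below 0 at P7, and Aqp4, Slc4a4, Slc1a3 and Sox9 are above 0 and called higher at P14.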

How the data were processed

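The authors deposited normalized counts per gene, in a separate table for each region, as signal values that are no longer whole numbers. STAR 2.5.0a, DESeq2 1.20.0, FastQC, MultiQC and the mm10 build appear per the submitters' processing notes, without their roles. Libraries were made from low RNA input with the Trio RNA-seq kit, per the labels' protocols. The counting program, annotation and strand are not given in the sources used here.

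Each column was divided by its smallest positive value, which gave whole reads (tolerance 0.01) for 100% of 463999 values checked. Rn45s was removed, the tables were joined by row order over 24421 symbols, of which 27 were restored from dates, and all columns of a comparison were rescaled together by median ratio. 23376 symbols matched GENCODE M21. Genes with a mean of at least 10 were tested with limma 3.58.1 (mean-variance trend, R 4.3.3) on log2(value + 1), with Benjamini-Hochberg adjustment over all tested genes and a threshold of 0.05. The same model on interaction terms compared ages. Gabbr1 and Gabbr2 also had an exact two-sided permutation test (scipy 1.17.1). Alternatives included edgeR 4.0.16 and DESeq2 1.42.0 on the recovered reads. Data of the P7 design were simulated for 12611 genes, of which 98 were changed 2-fold and 96 were changed 4-fold. There limma found 46.9% of the 2-fold and 90.6% of the 4-fold changes, and called 10 of 12417 unchanged genes. Far fewer genes differed there than were called at P7 (47.4%), so these shares do not give the sensitivity of the P7 result.

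The libraries and the 36 lists (409 genes) were chosen with earlier results of these data known. Some genes stand in several lists, so the counts of different lists are not independent. Named genes were Gabbr1, Gabbr2, list members, and called genes whose mean reached the median of the tested genes and whose symbol was not that of a predicted gene, pseudogene or clone. Of the latter, the 14 largest rises and 14 largest falls at P7 without overlap between groups, and the 3 largest changes each way between ages, were taken. Promoter windows were those of the 2 highest ranked regional factors in each direction with a RefSeq entry. Results of some genes that the rule names are not reported here.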

Additional observations from a re-analysis of the deposited data

Results flagged for a closer look

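The region difference (bulb minus cortex, log2 of value + 1) differed between ages by limma's interaction test, with a Benjamini-Hochberg adjusted p under 0.05 over all tested genes, for the following genes. From P1 to P7 it changed by 4.97 for Lgr5, 4.43 for Snhg11, 4.21 for Hs6st2, -3.10 for Sv2b, -2.95 for Dnajb9, -1.49 for Gabbr1, -2.31 for Hhip and -1.56 for Msmo1. Lgr5 rose in the bulb from a mean of 45.2 at P1 to 632 at P7, on the scale of the 12 libraries of those ages, while the cortex held 10.8 and 4.23. Cortex Snhg11 at P7 had a mean of 1585 with an SD of 1232 (n = 3), so its libraries were far apart.

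From P7 to P14 the difference changed by 4.77 for B3gnt5, 4.76 for Ccna2, 4.74 for Adgrl4, -5.62 for Lypd6, -5.09 for Gas6, -4.42 for Shisa7, -0.85 for Gabbr1 and 1.70 for Gabbr2. It changed by 3.64 for Aqp4, 2.72 for Slc6a11, 3.59 for Npas3, 3.25 for Ednrb, 3.23 for Kctd12, 2.07 for Dcx and 3.72 for Top2a. Lypd6 rose in the cortex from a mean of 59.3 to 494, on the scale of the 13 libraries of those ages, while the bulb mean went from 19.9 to 4.33. Cortex B3gnt5 went from 136 to 3.22, and the sizes fitted for genes with so few reads depend on the pseudocount.

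At P14 one cortex library stood apart for Sp8, at a normalized value of 4.74 against 1.1 to 1.4 in the other 3, all low levels beside a bulb mean of 408. Its gap to the next library exceeded Dixon's critical value for 4 samples. That test assumes normally spread values, so at such low levels it decides nothing.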

How the results depend on the processing

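No paired analysis was possible because the labels give no replicate numbers, and the numbers used here follow accession order. A minimum mean of 100 left 4017 genes called at P7 among fewer genes tested, and requiring a 2-fold difference left 3230. Other settings gave 4529 (fit of all 19 libraries) to 6285 (limma with array weights), with 6071 by edgeR and 5671 by DESeq2. Leaving out each library in turn gave 4547 to 5452 calls at P7, 6718 to 7817 at P1, 2670 to 3936 at P14, and 230 to 243 calls among list genes, where all 6 libraries gave 246. These counts need not hold the same genes. The region difference at P7 against P1 gave 1844 to 3010 calls, the lowest without bulb P1 replicate 2, and that at P14 against P7 gave 1891 to 3247. With a minimum mean of 100 the P7 against P1 changes split into 844 more positive and 1427 more negative. Gabbr1 at P7 ranged from -2.40 to -2.01 (largest limma adjusted p = 0.00059) and Gabbr2 from -3.50 to -2.92 (0.00094) over all alternatives run. Of 194 genes named at P7, 163 kept direction and call in every alternative that tested them. Settings whose filter dropped a gene, such as a minimum mean of 100 for genes with few reads, did not count for it. The difference of Pdgfra, which did not pass, turned to 0.17 without bulb replicate 3, in a range from -0.40 over the libraries left out. The Gabbr2 change from P1 to P7 passed with edgeR, DESeq2, TMM, a minimum mean of 100, and without bulb replicate 3 of P1 or of P7. The Gabbr1 change from P7 to P14 did not pass with quantile normalization (-0.46, adjusted p = 0.061), and that of Shisa7 did not pass without cortex replicate 2 or bulb replicate 1 of P7. The causes were not tested. At 3 libraries a group and these depths, genes with a mean under 10 were not tested.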

Other observations

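Xist, the RNA that coats the inactive X chromosome, stood at 19591, 6.14 and 21732 in the P7 bulb and at 4817, 5297 and 6405 in the P7 cortex. The low library, bulb replicate 2, is the one with Ddx3y. Among the 5 libraries with Xist the lower bulb value was 3.06 times the highest cortex value. With all 6 libraries the limma difference was -1.92 on the log2 scale and did not pass (limma adjusted p = 0.55). On the same libraries it was 1.34 by edgeR (adjusted p = 0.43) and 1.33 by DESeq2 (adjusted p = 0.58), so its sign depended on the method. Without bulb replicate 2 the limma difference was 1.92 (limma adjusted p = 0.00025), and with Ddx3y as a covariate 1.51 (limma adjusted p = 0.0037).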
